A study of Drosophila melanogaster with 16 samples.

Results

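The data described here are the Hi-C contact maps of control *Drosophila* S2 cells, in which the folding of the whole genome was measured without any change to the nuclear lamina. The maps were identified by their labels, as those of cells given dsRNA against bacterial *lacZ*, and they make up 2 of the 16 samples of the series, with 1 further map in which both libraries were pooled. The series concerns the nuclear lamina, the protein meshwork under the nuclear envelope, and also holds cells depleted of lamin Dm0, RNA-seq and ChIP-seq, none of which enters here. The 2 control samples are biological replicates of the S2 line, an established line of embryonic origin with macrophage-like properties, kept with *lacZ* dsRNA, which has no target in the fly genome, for 5 days by the sample records, although the methods give a shorter time, and cut with the restriction enzyme HindIII. A contact map holds no transcript levels, so the identity of the cells could not be checked against marker genes.

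Hi-C joins DNA ends that lie close together in fixed nuclei, so that the number of read pairs linking 2 stretches of the genome reports how often they meet. In most eukaryotes contacts fall with distance along the chromosome, and each chromosome keeps largely to a territory of its own. The large autosomes of *Drosophila* have 2 long arms joined at the centromere, written 2L and 2R or 3L and 3R, whereas X is a single long arm and chromosome 4 is a small chromosome rich in heterochromatin. Fly nuclei are known for the clustering of pericentromeric heterochromatin into a chromocentre and for the Rabl arrangement, in which centromeres lie towards one pole of the nucleus and telomeres towards the other, with the arms side by side between them.

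Each map covered 6023 bins of 20 kb on 2L, 2R, 3L, 3R, 4 and X, of which 5936 held values in all 3 maps and were used. The deposited values are corrected contacts, scaled by the authors so that every bin has the same sum, and levels are given below per 100000 contacts of a bin, as the mean over pairs of bins. The values of a map proved to be whole numbers of read pairs multiplied by 1 factor for each bin, which gave 9094954 read pairs in replicate 1 and 9598813 in replicate 2. The median bin of X held 1333 and 1401.5 read pairs in the 2 replicates, which was 0.418 and 0.415 of the median bin of the 4 large autosomal arms, so that X values rest on fewer reads. The paper describes S2 cells as male, and whether the copy number of X enters this ratio was not tested. The nearest distance with values is 40 kb. Arms, distances and pairs of arms are those of the dm3 genome assembly, and whether S2 chromosomes keep its order was not tested. With 2 maps of 1 condition no test was made: each value is given for replicate 1 and then replicate 2, and differences between arms are set against the difference between the replicates.

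Contacts within the arms fell steeply with distance, and the arms followed nearly the same course up to 1 Mb and parted beyond it. On 3R a bin had 2240 and 2297 of every 100000 contacts with a bin 0.1 Mb away, 97.3 and 98.6 with a bin about 1 Mb away, and 10.4 and 10.4 with a bin about 10 Mb away. Between 0.1 and 1 Mb the exponent, the slope of log10 contact on log10 distance, was -1.38 in both replicates as the mean of the 5 large arms. Between 1 and 10 Mb the fall was shallower, with a mean exponent of -0.91 and -0.92.

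The near exponents put the arms in 2 sets. It was -1.42 and -1.41 on 2L, -1.41 and -1.42 on 3L, and -1.41 in both replicates on 3R. The decline was less steep on 2R, at -1.32 and -1.33, and on X, at -1.32 and -1.31. The replicates of an arm differed by at most 0.00894, and 7 of the 10 pairs of large arms lay further apart than that. The 3 pairs that did not are those among 2L, 3L and 3R.

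Beyond 1 Mb every pair of large arms differed by more than the replicates of any of them, which were at most 0.0138 apart. Arm 2L fell most steeply, with an exponent of -1.09 and -1.10, and 3L least, with -0.78 in both replicates. Arms 2R, 3R and X lay between them, at -0.94 and -0.95 for 2R, -0.89 and -0.90 for 3R, and -0.86 and -0.87 for X. The range over the 5 arm means was 0.317 here, against 0.105 at 0.1 to 1 Mb.

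Levels at fixed distances show where the arms part. About 5 Mb away, 2L had the lowest level of the large arms, 19.8 and 19.8 per 100000, and X the highest, 29.7 and 30.1. About 10 Mb away, 2L stood at 7.22 and 7.30 and 3L at 15.5 and 15.7, more than any other large arm. Arm 2L then stopped falling, with 7.49 and 7.43 at 14 to 16 Mb and 7.55 and 7.496 at 18 to 20 Mb. Over the same step 3R went from 5.98 and 5.79 to 4.38 and 4.13. The curve of 2L is therefore not described by 1 slope, and its far exponent holds only for 1 to 10 Mb.

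**Figure D1:**
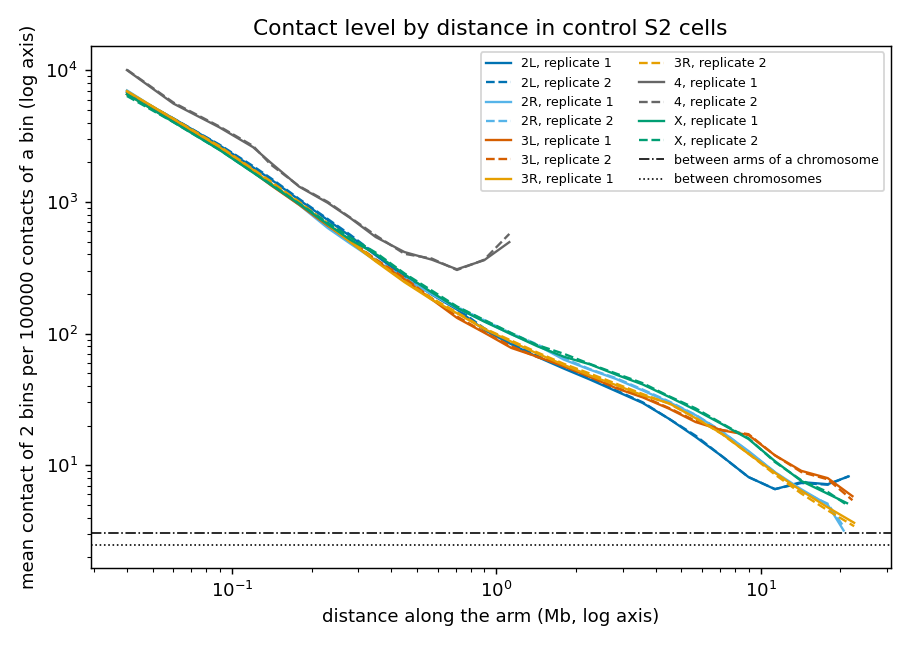
Mean contact of 2 bins of an arm by their distance, both axes logarithmic, for replicate 1 (solid) and replicate 2 (dashed), with the mean level between the arms of a chromosome (3.06) and between chromosomes (2.49) as horizontal lines. The replicates of an arm run together, the large arms part beyond about 1 Mb, 2L flattens beyond 10 Mb, and chromosome 4 lies above the large arms throughout.

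The slope also changed along an arm. In the centromere-near part of 2L, up to the middle of the arm, the exponent at 0.1 to 1 Mb was -1.50 in both replicates, against -1.34 and -1.33 in the telomere-near part. Arm 2R had the opposite order, with -1.25 and -1.25 near the centromere and -1.40 and -1.40 near the telomere. On 3L the centromere-near part was the shallower as well, at -1.38 in both replicates against -1.45 and -1.46. The parts of 3R and X were closer together, with -1.43 and -1.44 against -1.39 and -1.39 on 3R, and -1.33 and -1.32 against -1.31 and -1.29 on X. In all 5 arms the parts differed by more than the replicates of either, and no order of the parts was shared by all arms.

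Chromosome 4 held a larger part of each bin's contacts at short range than any large arm did. Its level at 40 kb was 10058 and 10133 per 100000, whereas the large arms had between 6393 and 7054. Its exponent at 0.1 to 1 Mb was -1.08 and -1.08, and its level was 386 and 397 about 0.5 Mb away and 360 and 390 about 1 Mb away. Between these it dipped to 308 and 304 at about 0.7 Mb, and it reached 496 and 572 at about 1.1 Mb, the greatest distance class. Only 62 of its 68 bins were in use, and its level at 1 Mb rests on few pairs of bins near its ends. Every bin has the same sum, and chromosome 4 placed only 1.06% and 1.22% of its contacts at 1 to 5 Mb and none beyond. Its levels and shares are therefore not directly comparable with those of the large arms. How far its short length enters them was not tested.

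Of all contacts at 40 kb or more, most lay within an arm, and pairs on different chromosomes took most of the rest. The share within an arm was 87.1% in replicate 1 and 88.0% in replicate 2, or 87.6% ± 0.605 (SD, n = 2). Contacts between the 2 arms of a chromosome took 3.07% and 2.87%, with a mean of 2.97% ± 0.138 (SD, n = 2). Contacts between chromosomes took 9.79% and 9.13%, with a mean of 9.46% ± 0.468 (SD, n = 2). Replicate 1 thus had the larger share of both kinds of contact outside the arm.

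The shares of the recovered read pairs show how small the counting error is beside this difference. Between chromosomes they held 770775 of 9094103 read pairs in replicate 1, or 8.48% (95% Wilson interval 8.46% to 8.49%), and 762788 of 9598020 in replicate 2, or 7.95% (7.93% to 7.96%). The intervals do not meet, so the replicates differed by more than counting error in this share. Read pairs were not marked with molecular identifiers, and every interval given here covers counting error only.

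The arms divided their contacts unequally. Contacts within 0.2 Mb took between 41.8% and 45.5% of a large arm's contacts in either replicate, and 58.8% and 59.4% of those of chromosome 4. At more than 5 Mb within the arm, 3L held 10.4% and 10.5% of its contacts and 2L only 6.46% and 6.47%. The other arm of the chromosome took 3.37% to 4.16% on the 4 autosomal arms that have one. Contacts with other chromosomes were the most frequent on chromosome 4, at 20.4% and 19.6%. Among the large arms they ranged from 7.77% and 7.13% on 3R to 11.4% and 10.8% on 2L, with X at 11.2% and 10.4%. The number of bins on other chromosomes is not the same for every arm, so the level for each pair of bins is the fairer comparison among the large arms. For chromosome 4 this level too is bound by the equal sum of every bin, since few partners lie far away in its own arm.

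For a pair of bins, contact between the arms of a chromosome was only slightly above that between chromosomes. The level was 3.16 and 2.96 per 100000 between the arms of a chromosome, and 2.58 and 2.41 between chromosomes. Their ratio was 1.22 and 1.23, with a mean of 1.23 ± 0.00378 (SD, n = 2), and differed far less between replicates than either level. Bins 14 to 16 Mb apart within an arm had 7.14 and 7.03 as the mean of the 5 large arms, which was 2.26 and 2.38 times the level across the centromere and 2.77 and 2.92 times that between chromosomes. The partner arm was thus met at a level nearer to that of another chromosome than to that of the own arm at 14 to 16 Mb. The partner level is a mean over all separations, so distances were not matched. In the greatest distance class of the large arms, about 20.6 to 22.5 Mb, the own-arm level was 3.19 and 3.41 on 2R and 3.65 and 3.44 on 3R. It was 8.22 and 8.23 on 2L, 5.81 and 5.42 on 3L, and 5.14 and 4.98 on X.

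The pairs of arms kept nearly the same order in the 2 replicates, with a Spearman correlation of 0.996 over the 15 pairs, which share arms and libraries. The highest level was not between arms of a chromosome but between 2L and 3L, at 4.29 and 4.13 per 100000. The next large pairs were the partner arms 2L and 2R, at 3.41 and 3.21, and 3L and 3R, at 2.98 and 2.78. In both replicates 2L with 3L stood above both partner pairs by more than the replicates differed.

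The other 7 pairs of large arms lay close together, from 2.19 and 2.00 for 2R with 3L to 2.45 and 2.25 for 2L with 3R. Neighbours in this order differed by less than the replicates of a pair, although replicate 1 was the higher for all 15 pairs. Chromosome 4 stood above these 7 with every large arm. Its level was 4.19 and 4.02 with 2L, 3.58 and 3.37 with X, 3.40 and 3.13 with 3L, 3.19 and 3.18 with 2R, and 3.11 and 3.04 with 3R. Because every bin has the same sum and chromosome 4 is short, these levels are not directly comparable with those between large arms. Without the pair of 2L and 3L, the ratio of contact between partner arms to contact between chromosomes rose from 1.23 to 1.36 as the mean of the replicates.

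**Figure D2:**
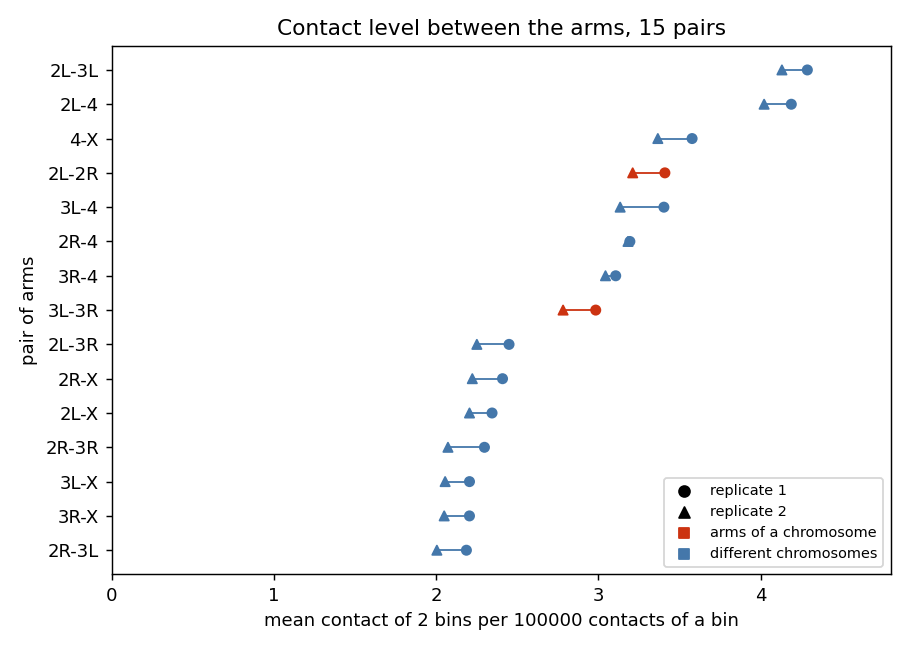
Mean contact of 2 bins for each of the 15 pairs of arms, with circles for replicate 1 and triangles for replicate 2, and partner arms of a chromosome in red. The pair 2L with 3L is the highest in both replicates, the 5 pairs with chromosome 4 and the 2 pairs of partner arms follow, and the other 7 pairs lie between 2.00 and 2.45.

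The share of contacts with other chromosomes changed along the arms in the same way in both maps. Over the 5936 bins it had a Pearson correlation of 0.959 and a Spearman correlation of 0.926 between replicates. Each arm was cut into 10 equal parts, numbered from the centromere. On 2L the median bin had 7.25% and 6.69% in part 3 and 14.6% and 13.6% in part 7. On 3L it was 7.05% and 6.41% in part 5 and 12.8% and 11.9% in part 10, next to the telomere. Arm 3R stayed low, with parts between 6.14% and 8.93%. Chromosome 4 had its highest share, 28.5% and 28.03%, in the part next to its telomere. The parts next to the centromere were neither the highest nor the lowest of any large arm, with 10.3% and 9.70% on 2L, 8.26% and 7.98% on 2R, 7.65% and 7.31% on 3L, 7.83% and 7.27% on 3R, and 10.5% and 9.46% on X.

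Ends of the arms are the places where a Rabl arrangement or a chromocentre would bring chromosomes together, and contacts there were compared with the mean of the pair of arms. The 1 Mb of sequence next to the centromere was taken as the centromere-near end and the last 1 Mb as the telomere-near end, both counted from the outermost bin in use. Satellite repeats lie beyond these bins and are not part of the maps. The windows held 46 to 50 bins, other than the centromere-near window of X, with 33.

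Centromere-near ends of different chromosomes met more often than their arms did. The mean ratio of observed to expected contact over the 8 pairs of large arms was 2.26 and 2.48, or 2.37 ± 0.158 (SD, n = 2), and all 8 pairs were above 1 in both replicates. One pair stood apart. Between 2R and 3L the ratio was 5.35 and 6.005, on 561 and 560 read pairs, and without it the mean over the other 7 fell to 1.90.

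The other pairs ranged from 1.12 and 1.35 for 2R with 3R to 2.68 and 2.87 for 2L with X. Between 2L and 3L the ratio was 1.73 and 1.58. Each ratio is to the mean of the pair itself, which was the highest for 2L with 3L. It therefore does not rank the pairs by level at their centromeres. For 3L with X the replicates lay far apart, at 1.39 and 2.27, on 65 and 88 read pairs. Read against the 95% Poisson intervals of the read pairs, 2R with 3R was the only pair whose interval reached 1, with 0.892 to 1.19 in replicate 1 and 0.865 to 1.16 in replicate 2. These intervals refer to the ratio of read pairs to those expected from each bin's own contacts with other chromosomes.

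Across the centromere itself the partner arms differed. The ends of 2L and 2R met 8.94 and 9.66 times as often as the whole arms did, on 1997 and 2074 read pairs, the highest ratio of any pair of ends. The ends of 3L and 3R reached only 1.46 and 1.63, on 214 and 230 read pairs. The pairs differed by far more than their replicates, and 3L with 3R lay below 2R with 3L, which are on different chromosomes.

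Telomere-near ends were closer to each other in level, and more of their excess depended on how the expected value was formed. Over the 8 pairs on different chromosomes the ratio was 1.82 and 1.83, or 1.83 ± 0.00322 (SD, n = 2), with every pair above 1. The highest was 2R with 3R, at 3.40 and 2.91, and the lowest 3L with X, at 1.10 and 1.21. On the partner arms the ratio was 2.61 and 2.04 for 2L with 2R and 1.63 and 1.67 for 3L with 3R. Pairs of a centromere-near with a telomere-near end, given for comparison with like ends, had 0.993 and 0.932 over 16 pairs of different chromosomes, with single pairs between 0.345 and 1.72.

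The median bin of the telomere-near window held fewer read pairs than that of its arm on all 5 large arms in both replicates. The centromere-near window also held fewer on 3L, at 1647 and 1567.5 against 3369 and 3566.5, and on 3R, at 2774.5 and 2910.5 against 3136 and 3303. On 2L, 2R and X the centromere-near window held more than the arm. Every centromere-near ratio with 3L therefore rests on a window of low depth. In the telomere-near window of X the median bin held 758 and 797 read pairs, and in that of 2R 1352 and 1464, against 3111 and 3284 over the whole of 2R. Because an end can differ from its arm in its contacts with all other chromosomes together, the expected value was also formed from each bin's own contacts with other chromosomes. The telomere-near mean then fell to 1.35 and 1.35, with 5 of the 8 pairs above 1 in either replicate. For 2L with 3L it became 0.602 and 0.485, for 2R with 3L 0.819 and 0.818, and for 3L with X 0.588 and 0.622. All 3 pairs of different chromosomes with the end of 3L thus fell below 1. Of the partner arms, 3L with 3R also fell below 1, to 0.649 and 0.664, whereas 2L with 2R stood at 2.17 and 1.64. The centromere-near mean was 2.49 and 2.72 in this form, and centromere-near with telomere-near ends came to 0.835 and 0.784.

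**Figure D3:**
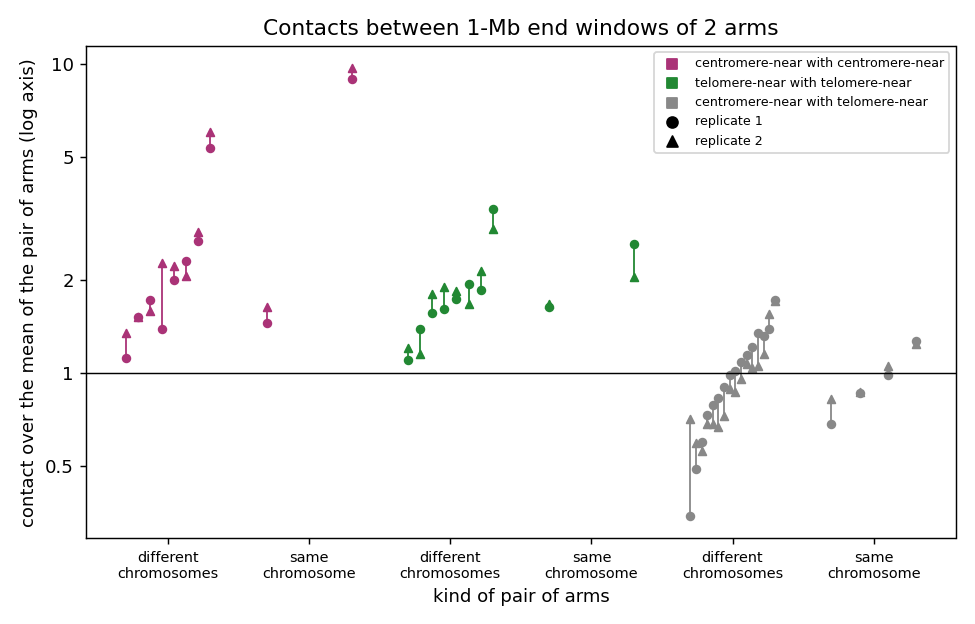
Contact between the 1-Mb end windows of 2 arms over the mean of the pair of arms, on a logarithmic axis, with 1 pair of symbols for each pair of arms (circle replicate 1, triangle replicate 2) and a line at 1. Like ends lie above 1 in both replicates, with 2L and 2R across the centromere at 8.94 and 9.66, whereas unlike ends lie on both sides of 1.

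The ratio was raised in the 1 Mb next to the ends and fell over the next few Mb. For centromere-near ends it was 2.16 and 2.34 at 0.2 to 0.5 Mb and 2.25 and 2.204 at 0.5 to 1 Mb, with no shared order. It then fell to 1.48 and 1.48 at 1 to 2 Mb and 1.07 and 1.06 at 2 to 4 Mb. With the expected value from each bin's own contacts it did not come down to 1, with 1.15 and 1.14 at 2 to 4 Mb and 1.20 and 1.23 at 4 to 8 Mb. In the outermost 0.2 Mb the replicates gave 1.91 and 4.55, too far apart to place that value. For telomere-near ends it was highest at the very end, with 5.26 and 5.51 in the outermost 0.2 Mb, 1.93 and 2.30 at 0.2 to 0.5 Mb, and 1.26 and 1.42 at 0.5 to 1 Mb. It was 1.12 and 1.20 at 1 to 2 Mb and 1.17 and 1.16 at 2 to 4 Mb. With the expected value from each bin's own contacts, the outermost 0.2 Mb still stood at 3.38 and 3.51.

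Chromosome 4, of which only a stretch of 68 bins was mapped, met the centromere-near ends of the other chromosomes more than the rest of their arms. The ratio was 2.39 and 2.31 for 2L, 2.27 and 2.23 for 2R, 2.29 and 2.22 for 3R, 1.71 and 1.76 for X, and 1.57 and 1.81 for 3L. Its mean over the 5 arms was 2.04 and 2.06, against 1.24 and 1.28 for the telomere-near ends. With the expected value from each bin's own contacts the means were 2.12 and 2.15 against 1.05 and 1.07, so their order did not rest on that choice. On X the replicates did not share an order in this form, with 1.47 and 1.49 near the centromere against 1.56 and 1.23 near the telomere. The telomere-near values of X rest on 131 and 113 read pairs.

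If arms lie side by side from centromere to telomere, loci at the same distance from the centromere should meet more than loci at different distances. Over all pairs of large arms, bins whose distances from the centromere differed by at most 1 Mb met 1.09 and 1.09 times as often as bins that differed by 8 Mb or more, with a mean of 1.09 ± 0.00219 (SD, n = 2). For partner arms this ratio was 1.21 and 1.22, and for arms of different chromosomes 1.06 and 1.06. Without the 2 Mb next to each end, it came to 1.09 and 1.07 for partner arms and to 1.01 and 1.01 for different chromosomes. Between partner arms contact declined step by step with the difference in distance, from 1.16 and 1.17 at up to 1 Mb, through 1.08 and 1.07 at 1 to 2 Mb and 1.03 and 1.03 at 2 to 4 Mb, to 0.96 and 0.96 at 8 Mb or more.

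Single places of strong contact between arms were sought in blocks of 0.2 by 0.2 Mb, and the 5 with the highest ratio of observed to expected contact in the pooled map are given by their dm3 coordinates. Only the 903 of 145913 blocks in which at least 50 of 100 pairs of bins held contacts could be chosen, a rule that favours blocks with much contact. Since the pooled map chose them and contains both replicates, the replicate values describe these blocks and are no independent check.

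The strongest block joined chr3L:19600001-19800000 with chrX:16400001-16600000, at 47.9 and 50.3 times the mean of the pair, on 119 and 120 read pairs. It ranked first in each replicate. Its level of 106 and 103 per 100000 was close to that of bins 1 Mb apart within an arm. The contact lay in a narrow strip: it ran for several Mb along X on both sides of the block but was about 0.4 Mb wide on 3L. In the area within 2 Mb to the left of the block on both arms the level was 0.828 and 0.861 times the pair mean. To the left on 3L and right on X it was 0.957 and 0.885. To the right on 3L, in areas that each take in part of the strip, the level was higher. There it was 2.00 and 2.12 to the left on X, and 1.96 and 1.85 to the right on X.

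Blocks 2 and 3 in this order both lay at 14 Mb on 2L. Between chr2L:14000001-14200000 and chr3L:800001-1000000 contact was 30.5 and 29.7 times the mean, on 209 and 222 read pairs. Between chr2L:14200001-14400000 and chr3L:2600001-2800000 it was 27.6 and 23.7 times the mean, on 225 and 228 read pairs. Around the second block, the quadrant towards the left ends of both arms held 5.87 and 6.12 times the mean, whereas that to the right on 2L and left on 3L held 1.02 and 1.11. On the right of the block along 3L, the quadrants before and beyond it on 2L were alike, at 2.44 and 2.60 before and 2.74 and 2.68 beyond, the latter an area that holds the third block. Around the third block the left quadrants on 2L held 3.96 and 4.23, and 3.75 and 4.13, against 1.56 and 1.49 to the right on 2L and left on 3L, and 0.742 and 0.735 to the right on both arms.

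The fourth block joined chr2L:8000001-8200000 with the left end of 3L, chr3L:1-200000, at 20.8 and 15.9 times the mean. Its right quadrant towards the middle of both arms held 4.79 and 5.11 times the mean, and that towards the left end of 2L held 1.91 and 1.96. The blocks at 8 and 14 Mb thus bounded a stretch of 2L with raised contact to the left part of 3L. The fifth block lay across the centromere of chromosome 2, between chr2L:22800001-23000000 and chr2R:1-200000, at 15.98 and 19.7 times the mean, on 117 and 125 read pairs. The pooled map held fewer read pairs than both replicates together in all 5 blocks, for example 387 against 209 and 222 in the second, and its ratio lay below those of both replicates in the first and second blocks, at 44.2 and 27.9.

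**Figure D4:**
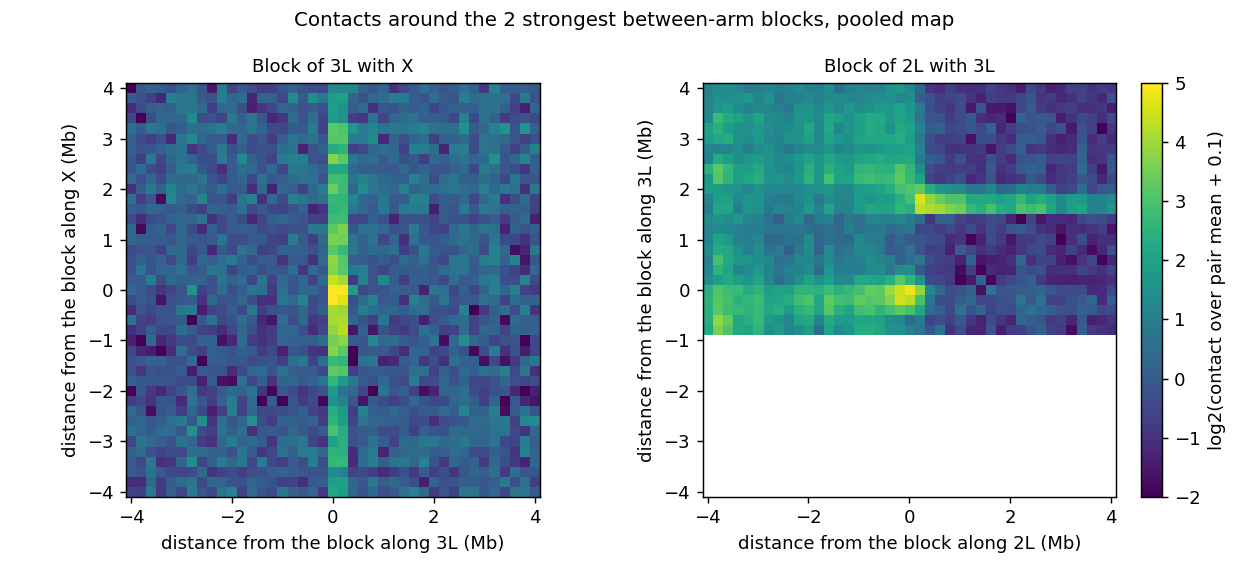
Contact around the 2 strongest between-arm blocks in the pooled map, as log2 of the ratio to the mean of the pair of arms plus 0.1, by distance from the block in Mb along each arm, in squares of 0.2 Mb. The left panel shows a strip that is narrow on 3L and long on X, and the right panel a raised area of 2L and 3L left of the block on 2L, a raised strip about 1.6 Mb further along 3L that continues to its right, and white beyond the end of 3L.

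The agreement of the replicates was lower at greater distances, where fewer read pairs stood behind a value. Depth and distance move together here, and their parts were not tested. Within the large arms, pairs of bins were compared after division by the mean at the same distance, so that the decay itself could not raise the correlation. At 40 to 100 kb, where a pair of bins held 127 read pairs on average, the Pearson correlation between replicates was 0.944 as the mean of 5 arms. It was 0.735 at 0.22 to 0.5 Mb with 12.8 read pairs, 0.419 at 1 to 2 Mb with 2.28, and 0.0887 at 5 to 10 Mb with 0.523. As the mean of 5 arms, single pairs of bins beyond 1 Mb thus agreed weakly between these maps, and the values given above are means over many of them.

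Arm X, with the fewest read pairs, had the lowest correlation of the large arms in each of the 7 distance classes. At 0.12 to 0.2 Mb it was 0.812 on X, with 16.9 read pairs for a pair of bins, and 0.887 to 0.914 on the other 4 arms, with 41.8 to 49.8. Arm 3L departed from the general course, with 0.611 at 1 to 2 Mb, above the 0.509 it had at 0.5 to 1 Mb with more read pairs.

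**Figure D5:**
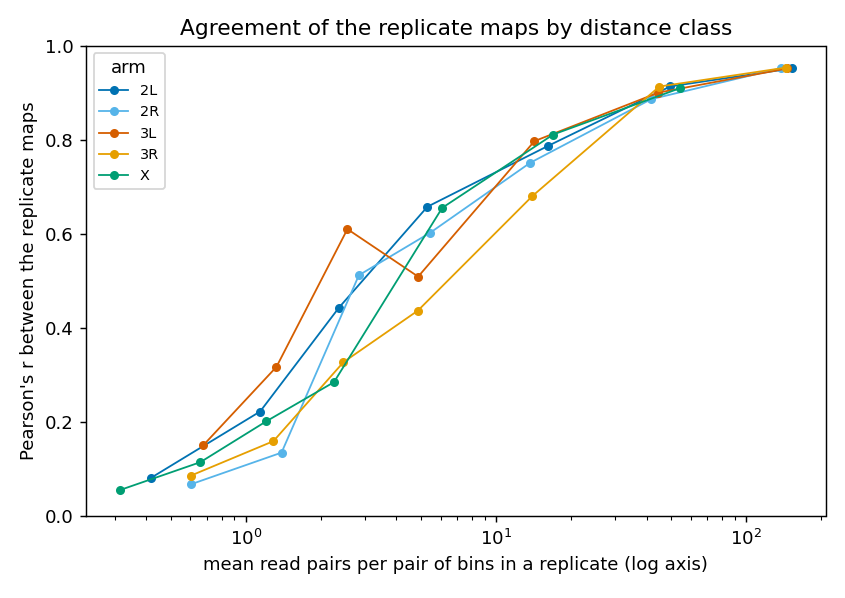
Pearson correlation between the replicate maps, after division by the mean at each distance, against the mean number of read pairs for a pair of bins (logarithmic axis), with 1 line for each large arm and 1 point for each of 7 distance classes from 40 kb to 10 Mb. The correlation falls from 0.911 to 0.954 at 40 to 100 kb to 0.0557 to 0.151 at 5 to 10 Mb.

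Between arms the maps agreed once enough bins were averaged. In blocks of 1 by 1 Mb the Pearson correlation of log2 contact was 0.898 over 5673 blocks, which share arms and bins. It was 0.335 over 138262 blocks of 0.2 Mb and 0.967 over 1445 blocks of 2 Mb. At 1 Mb the correlation was 0.981 over the 552 blocks of 2L with 3L, 0.896 over the 1155 blocks of partner arms, and 0.842 over the 5121 blocks other than 2L with 3L. The median 1-Mb block differed by 0.14 on the log2 scale between the replicates, after the shift common to all blocks was removed.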

How the data were processed

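Hi-C was performed by the authors on 2 biological replicates of control S2 cells. Per the labels, read pairs were mapped with Bowtie2 2.2.1 to dm3, and the authors applied iterative correction to maps of 20-kb bins. For each pair of bins the deposited files give this corrected signal, with the first 2 diagonals at 0 and the same sum for every bin. Dividing out 1 factor for each bin gave whole read pairs (within 0.001) for 100% of the values. Bins in use in all 3 maps entered. In 99.2% of the cells with contacts in either replicate, the pooled map equalled the sum of the replicates.

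Exponents are least-squares slopes over 10 logarithmic distance classes. Expected contact between arms is the mean of the pair of arms, or is formed from each bin's contacts with other chromosomes. The 5 named blocks are those with the highest ratio in the pooled map with at least 50 filled pairs of bins, no pair of blocks within 1 Mb of each other. Values are given for each replicate, as mean and SD, without tests. Analyses used Python 3.11.15, numpy 2.4.6 and scipy 1.17.1, were tested on simulated maps, and used no gene annotation. The maps, measures and alternatives were chosen with earlier results of these data known.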

Additional observations from a re-analysis of the deposited data

How the results depend on the processing

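No paired analysis was possible because the values come from no test and only 1 group was examined. With either replicate left out, the mean near exponent was -1.38 and -1.38, the far exponent -0.92 to -0.91, the share within an arm 87.1% to 88.0%, between partner arms 2.87% to 3.07% and between chromosomes 9.13% to 9.79%. The density ratio of partner arms to chromosomes was then 1.22 to 1.23, the centromere-near ratio 2.26 to 2.48, the telomere-near ratio 1.82 to 1.83 and the matched-distance ratio 1.09 to 1.09. The SD of 2 maps is small for several results, so that of 54 further alternatives 39 moved a value by more than it and 15 did not, where replicate agreement, which has no SD, counts as moved throughout. The means over pairs of arms stayed above 1 under all alternatives, while single pairs of ends did not when the expected value came from each bin's own contacts.

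Distances of 0.2 to 2 Mb gave a near exponent of -1.198, every diagonal as 1 point -1.35, and the pooled map -1.38. Distances of 2 to 8 Mb gave a far exponent of -0.95 and every diagonal as 1 point -0.96. With contacts of at least 100 kb only, the shares within an arm, between partner arms and between chromosomes were 82.8%, 4.11% and 13.1%. The density ratio was 1.24 without chromosome 4 and 1.21 without the 1 Mb next to each centromere-near end. Windows of 2 Mb gave a centromere-near ratio of 1.75 and a telomere-near ratio of 1.40, and windows of 0.5 Mb a telomere-near ratio of 2.88. Leaving both kinds of end window out of the expected value gave a telomere-near ratio of 1.85, and the pooled map gave 1.81. The matched-distance ratio was 1.02 without the 2 Mb next to each end. Replicate agreement was 0.335 in 0.2-Mb blocks, 0.967 in 2-Mb blocks and 0.819 as Spearman's correlation.

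Leaving out the 595 bins with the fewest filled cells, 349 of them on X, gave exponents of -1.37 and -0.91, shares between partner arms and between chromosomes of 3.19% and 8.82%, a density ratio of 1.21, end ratios of 2.11 near centromeres and 1.91 near telomeres, a matched-distance ratio of 1.07 and an agreement of 0.922. The following were chosen after seeing the data. Read pairs in place of corrected values gave shares of 88.6%, 3.17% and 8.21%, and end ratios of 2.59 near centromeres and 1.35 near telomeres. The expected value from each bin's own contacts gave 2.60 and 1.35. Without 2R with 3L the centromere-near ratio was 1.90, and without 2R with 3R the telomere-near ratio was 1.64. Without 2L with 3L the density ratio was 1.36 and the matched-distance ratio 1.12. Of the filled cells of a replicate, 67.1% and 66.0% rest on 1 read pair.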

Other observations

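The following stretches were chosen after their values were seen, and their values are given without a test. The raised contact of 2L with 3L was concentrated in 2L from 8 to 14 Mb with 3L from 0 to 10 Mb. This area had 12.7 and 12.7 contacts per 100000 of a bin in replicates 1 and 2, which was 2.96 and 3.08 times the mean of the pair, and held 32.0% and 33.2% of the contacts between these arms on 10.8% of the pairs of bins. On either side of it along 2L, with the same part of 3L, the level was 4.38 and 4.25 from 0 to 8 Mb and 2.89 and 2.77 from 15 to 23 Mb. Outside the area the pair still had 3.27 and 3.09, above the 2.00 to 2.45 of the other pairs of large arms on different chromosomes.

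To the right of the edge at 14 Mb on 2L, a strip of 3L remained raised. Contact of 3L from 2.4 to 2.8 Mb with the next 4 Mb of 2L was 29.5 and 28.7 per 100000, whereas the neighbouring 0.4 Mb of 3L had 2.35 and 2.16 on one side and 5.96 and 5.92 on the other. Of all contacts of this strip, 15.0% and 14.9% were with 2L, and its contacts 0.5 to 2 Mb away in its own arm were 0.921 and 0.905 times the level of 3L at those distances.

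The strip of 3L from 19.6 to 20 Mb had 18.995 and 19.4 per 100000 with X within 4 Mb of the strongest block. The neighbouring 0.4 Mb had 1.93 and 2.00 on one side and 2.58 and 2.26 on the other. It gave 10.9% and 10.8% of its contacts to X, and its contacts 0.5 to 2 Mb away in its own arm were 1.18 and 1.17 times the level of 3L at those distances.

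Far contacts within an arm also had single strong places. Blocks of 0.2 Mb at 4 Mb or more from each other were ranked by their ratio to the mean at the same distance, in the pooled map. The highest joined chr2L:7400001-7600000 with chr2L:21200001-21400000, 13.8 Mb apart, at 18.4 and 20.8 times the mean, on 1127 and 1304 read pairs. Its level of 212 and 233 per 100000 was close to that of bins 0.5 Mb apart on 2L, at 232 and 240. The next joined chr3L:600001-800000 with chr3L:10600001-10800000, 10.0 Mb apart, at 5.22 and 6.498 times the mean. The fifth joined the same place on 2L at 21.2 Mb with chr2L:6400001-6600000, at 4.88 and 4.42 times the mean.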
